A study of Mus musculus with 20 samples.

Results

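The 10 apolipoprotein genes Apoa1, Apoa2, Apoa4, Apoa5, Apob, Apoc1, Apoc2, Apoc3, Apoe and Apoh were followed through a mouse RNA sequencing study of alcohol feeding. They were chosen by symbol, and all 10 were found among the 24972 symbols of the liver table and of the RAW264.7 table. The study held 20 libraries, 14 of total liver and 6 of RAW264.7, a mouse macrophage-like cell line. The liver came from mice labelled RageΔMye, 3 fed alcohol diet and 3 control diet, and from WT mice, 4 fed alcohol diet and 4 control diet, in each case over 6 weeks. RAW264.7 cells received either [O] HMGB1 + IL1β, called the complex (3 libraries), or BSA (3 libraries), over 6 hours. RageΔMye is read here as loss of RAGE, the receptor encoded by Ager, in myeloid cells. The labels name neither the Cre driver, nor the strain or age, and they do not say that replicates were separate animals or cultures, so the p-values measure only the spread between these libraries.

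Apolipoproteins are the protein part of lipoproteins, the particles that carry triglyceride and cholesterol through blood, and the liver is the main source of most of them. Apob is the scaffold of very low density lipoprotein (VLDL), Apoa1 and Apoa2 are the main proteins of high density lipoprotein (HDL), and the small Apoc proteins and Apoe exchange between particles and set how lipases and receptors act on them. Apoa5 promotes the clearance of triglyceride by lipoprotein lipase, Apoa4 is made in intestine and liver in response to lipid load, and Apoh, also called beta-2-glycoprotein I, binds phospholipids.

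Values are TPM, which scale each library to 1 total and take gene length into account, so that levels can be compared between genes. The read depth of the libraries is unknown. Libraries labelled RageΔMye listed 7596 to 8502 genes above 0, against 15113 to 15599 for WT, and RAW264.7 libraries listed 8630 to 9231. Between replicates, the correlation of log2 values was 0.698 to 0.736 in the libraries labelled RageΔMye and 0.968 to 0.990 in WT libraries. Ager was at 93.1 to 166 TPM in the libraries labelled RageΔMye and at 0.0194 to 0.478 TPM in WT libraries, a direction opposite to a loss. Total liver also holds cells that are not myeloid, so these values cannot show whether the genotype label holds. Of 14 housekeeping genes, 1 or 2 were at 0 in each library labelled RageΔMye and none in WT libraries. Genes that share exon sequence with a gene on the opposite strand held 55.8% to 61.7% of all TPM in the libraries labelled RageΔMye and 15.4% to 18.3% in WT libraries, and the strand setting of the counting is not given in the sources used here. All mice were labelled male, yet Xist was at 17.8 to 27.3 TPM in WT livers on alcohol diet and 0.00165 to 0.135 TPM in WT livers on control diet. The summed TPM of 4 Y-linked genes was 0 to 0.0161 in WT livers on alcohol diet and 11.3 to 16.6 in WT livers on control diet. Diet and sex therefore cannot be told apart in WT liver. In the libraries labelled RageΔMye the Y-linked sum was 0.276 to 1.74 on alcohol diet and 3.16 to 4.50 on control diet. Xist was at 0.322 to 0.990 TPM on alcohol diet and 0 to 3.10 TPM on control diet in these libraries, so its ranges overlapped.

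In WT liver, Apoa4 and Apoa5 were higher on alcohol diet, and the other 8 members did not pass the test. Apoa4 and Apoa5 lie with Apoa1 and Apoc3 within 43.3 kb (chr9:46228580-46271919, GRCm38, which is mm10). The 300 bases around their starts are shown because these neighbouring genes differed in whether they passed the test. Each window runs from 250 bases before to 50 bases after the start in RefSeq on GRCm38.p6 and lies on the plus strand, at chr9:46240594-46240893 for Apoa4, chr9:46268383-46268682 for Apoa5 and chr9:46228380-46228679 for Apoa1. Capitals mark matches to the motifs searched.
Apoa4: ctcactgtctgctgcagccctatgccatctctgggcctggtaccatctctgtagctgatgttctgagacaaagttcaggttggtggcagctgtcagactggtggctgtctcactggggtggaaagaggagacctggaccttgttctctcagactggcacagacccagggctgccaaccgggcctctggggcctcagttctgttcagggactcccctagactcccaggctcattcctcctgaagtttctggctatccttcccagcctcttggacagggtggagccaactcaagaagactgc
Apoa5: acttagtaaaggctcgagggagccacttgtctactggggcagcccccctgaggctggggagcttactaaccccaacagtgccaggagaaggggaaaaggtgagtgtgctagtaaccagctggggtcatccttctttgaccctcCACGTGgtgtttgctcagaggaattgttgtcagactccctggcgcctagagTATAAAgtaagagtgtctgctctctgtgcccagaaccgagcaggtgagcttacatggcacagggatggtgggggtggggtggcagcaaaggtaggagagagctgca
Apoa1: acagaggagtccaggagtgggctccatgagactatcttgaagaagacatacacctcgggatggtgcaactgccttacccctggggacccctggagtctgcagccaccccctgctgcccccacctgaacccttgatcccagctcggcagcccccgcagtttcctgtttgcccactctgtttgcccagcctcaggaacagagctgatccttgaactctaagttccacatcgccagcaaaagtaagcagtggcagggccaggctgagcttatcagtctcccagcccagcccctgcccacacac
The motifs were TATAAA (core of the TATA box), CACGTG (an E-box), CAAAGTCCA (core of an HNF4 site) and AGGTCA (a half-site of nuclear receptors), searched on both strands, and none of them contains another. The Apoa5 window held TATAAA 56 bases and the E-box 107 bases before the start. The Apoa4 and Apoa1 windows held none of the motifs. In GENCODE, Apoa4 starts at chr9:46240696 and Apoa1 at chr9:46228580, both upstream of the RefSeq start used. These windows therefore reach less far upstream of the GENCODE start, and motifs beyond them were not searched. Over 32851 promoter windows of the same length, 13.6% held the TATA box core, 7.15% the E-box, 0.475% the HNF4 core and 16.3% the nuclear receptor half-site. RefSeq windows were matched for 8 of the 10 members, all but Apoc1 and Apoc3.

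The first question was whether alcohol diet changed the members in WT liver. Of all 9747 genes tested, 31.2% passed at an adjusted p under 0.05 (limma, Benjamini-Hochberg). Of the 10 members, 2 passed, both higher, against 13.3% of all genes that passed in that direction. The median log2 difference was 0.01 over the members and -0.05 over all genes tested. A count of 2 in 10 lies near these backgrounds, and nothing is read from it.

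Apoa4 was at 1647, 1568, 1420 and 1819 TPM in WT livers on alcohol diet, against 655, 1118, 557 and 1466 TPM in WT livers on control diet. 3 of the control libraries lay below every alcohol library, and the fourth lay within their range. The log2 difference was 0.87 (SE 0.27, 95% interval 0.28 to 1.46, adjusted p = 0.032, limma), or 1.83-fold.

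Apoa5 was at 1046, 1128, 975 and 1175 TPM in WT livers on alcohol diet, against 767, 934, 790 and 878 TPM in WT livers on control diet. Every alcohol library lay above every control library, which 12.3% of all genes tested did in this direction. The log2 difference was 0.36 (SE 0.11, 95% interval 0.12 to 0.61, adjusted p = 0.032, limma), or 1.28-fold. Apoa4 shares exon sequence with Gm10680 and Gm47528 and Apoa5 with Gm47544, all annotated on the opposite strand and not analysed here, so that reads from these genes cannot be told apart without the strand setting.

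Both calls were close to the threshold. Major urinary protein (Mup) transcripts, secreted liver proteins that are abundant in males, summed to 1771 to 2510 TPM in WT livers on alcohol diet and 72566 to 109461 TPM in WT livers on control diet, so the remaining genes share a different total. With TPM rescaled without the Mup genes, the median of all genes moved to -0.17, 954 genes passed as higher and 2748 as lower in place of 1296 and 1746, and neither Apoa4 (0.72, adjusted p = 0.0501) nor Apoa5 (0.21, adjusted p = 0.146) passed in limma. Each of the pair also lost its call in 5 of 8 fits that left out 1 library, namely alcohol replicate 1, 2 or 4 or control replicate 1 or 3. Over those 8 fits the log2 difference of Apoa4 was 0.65 to 1.11 (adjusted p 0.00354 to 0.0879, limma) and that of Apoa5 0.32 to 0.41 (adjusted p 0.0215 to 0.0867, limma). Without the filter on low values their adjusted p was 0.153 and 0.0569, and it was 0.644 and 0.219 when all 14 liver libraries shared 1 estimate of the spread. The sign was positive in all of these fits.

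**Figure D1:**
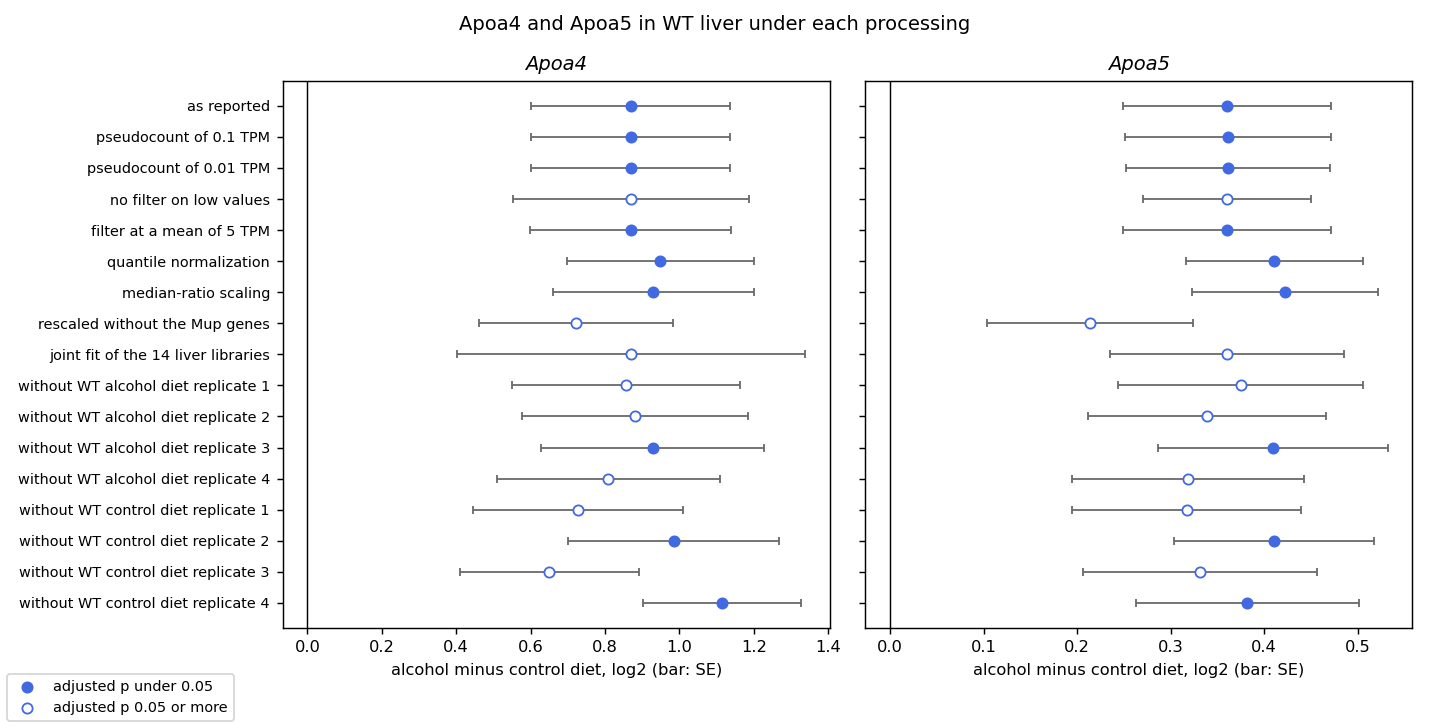
Log2 difference of Apoa4 and Apoa5 between WT livers on alcohol and on control diet (horizontal axis, bars are SE) under each processing and with each library left out. All estimates lie above 0, and filled points mark an adjusted p under 0.05.

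Apoa1, the main HDL protein and activator of the cholesterol-esterifying enzyme LCAT, averaged 13040 ± 1641 TPM in WT livers on alcohol diet and 12880 ± 2279 TPM in WT livers on control diet (SD, n = 4 each). Its log2 difference was 0.03, with a 95% interval of -0.32 to 0.37. Apoa2, the second HDL protein, averaged 8292 ± 434 TPM on alcohol diet and 8420 ± 1637 TPM on control diet, with an interval of -0.31 to 0.30. Apoa1 and Apoa2 therefore showed no difference beyond the spread, and differences up to these bounds could have been missed.

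Apob, the VLDL scaffold, was at 302, 388, 264 and 352 TPM in WT livers on alcohol diet and 305, 254, 467 and 515 TPM in WT livers on control diet. The alcohol libraries lay inside the control range, and the log2 difference was -0.19 with an interval of -0.69 to 0.30. Apoc3, an inhibitor of lipoprotein lipase, averaged 2781 ± 92.6 TPM on alcohol diet and 2627 ± 553 TPM on control diet (interval -0.21 to 0.41). Apoc2, the cofactor that lipoprotein lipase needs, averaged 330 ± 53.9 TPM on alcohol diet and 354 ± 65.4 TPM on control diet (interval -0.46 to 0.26).

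Apoe, the ligand through which remnant particles are taken up by cells, averaged 5030 ± 347 TPM in WT livers on alcohol diet and 5358 ± 1150 TPM in WT livers on control diet (interval -0.40 to 0.26). Apoc1, which inhibits receptor binding of remnants, averaged 7376 ± 489 TPM on alcohol diet and 7231 ± 1801 TPM on control diet (interval -0.31 to 0.43). Apoh averaged 3448 ± 41.2 TPM on alcohol diet and 3486 ± 338 TPM on control diet (interval -0.24 to 0.22). None of these passed the test. The signs of 6 of the 8 members that did not pass, all except Apob and Apoc3, turned in at least 1 fit that left out a library, and that of Apoc3 turned with TPM rescaled without the Mup genes. Control replicate 2 held the highest value of its group for 8 of the 10 members.

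**Figure D2:**
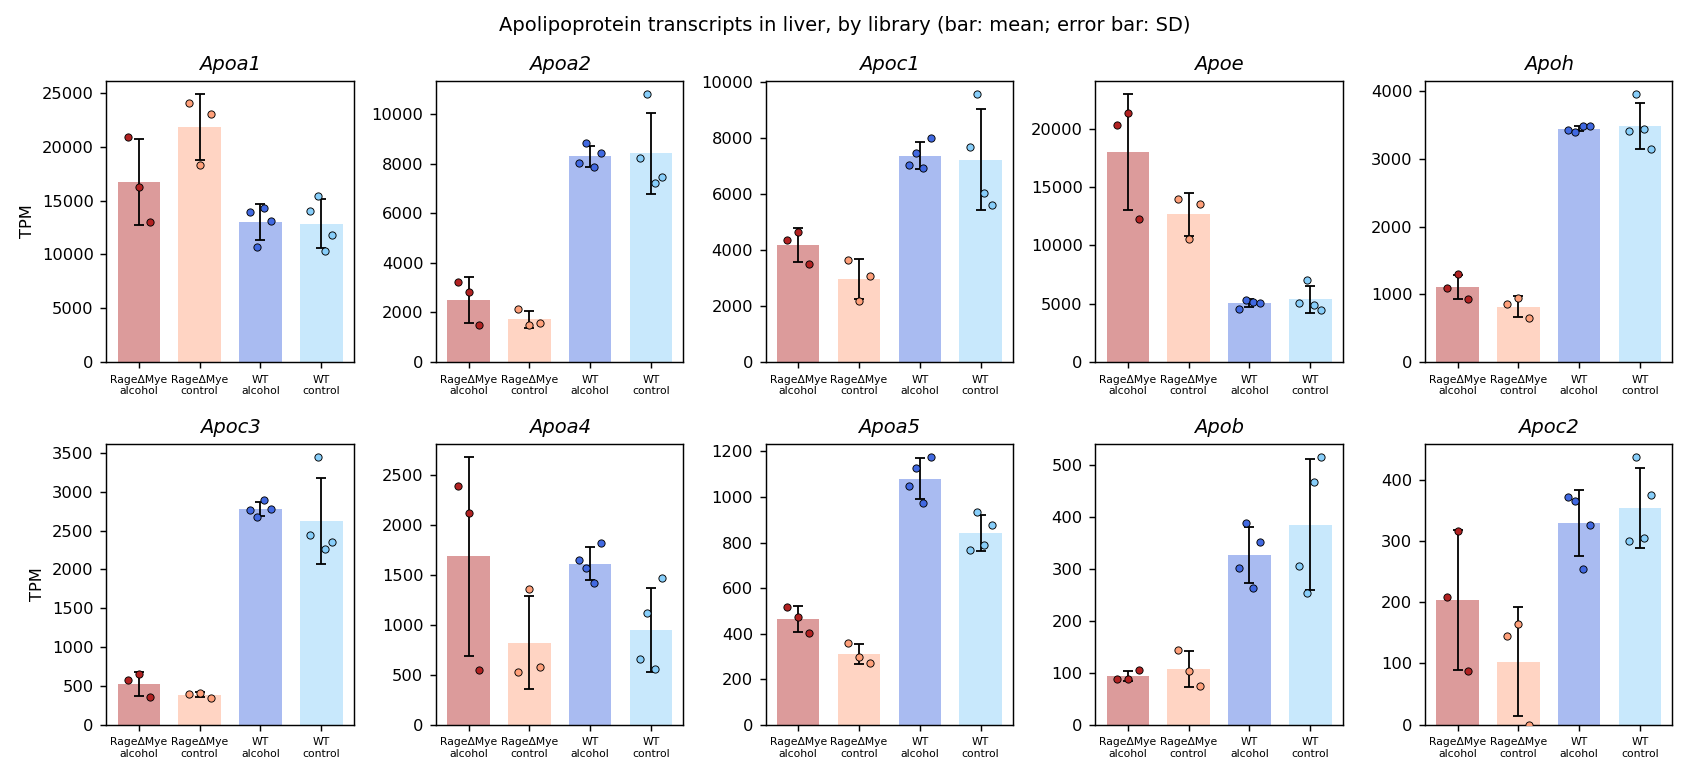
TPM of each member in the 4 liver groups (points are libraries, bars are means, error bars are SD), each panel with its own scale from 0. Apoa5 in WT shows alcohol libraries (975 to 1175 TPM) above control libraries (767 to 934 TPM), and Apoa1 and Apoe are the members whose mean was higher in the libraries labelled RageΔMye than in WT on both diets.

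In WT liver the order of the mean levels was the same on either diet for the first 8 places: Apoa1, Apoa2, Apoc1, Apoe, Apoh, Apoc3, Apoa4 and Apoa5. Apob and Apoc2 came last, and their ranges overlapped on either diet. On alcohol diet, the ranges of Apoa2 and Apoc1 were the only other neighbours to overlap. On control diet, overlaps with the next place ran from Apoa1 to Apoe, and joined Apoh with Apoc3 and Apoa4 with Apoa5. In the libraries labelled RageΔMye, Apoe (17990 ± 4969 TPM) and Apoa1 (16750 ± 3974 TPM) overlapped on alcohol diet, and Apoa1 (21850 ± 3058 TPM) lay above Apoe (12680 ± 1845 TPM) in all 3 libraries on control diet (SD, n = 3 each). Apoc1 and Apoa2 followed on either diet.

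The 10 members together made up 4.33% ± 0.11 of all TPM in WT livers on alcohol diet and 4.25% ± 0.75 in WT livers on control diet (SD, n = 4 each). In the libraries labelled RageΔMye the share was 4.55% ± 1.12 on alcohol diet and 4.18% ± 0.53 on control diet (SD, n = 3 each). The summed share differed between diets by less than its spread in each genotype. Apoe alone held 29.5% to 42.6% of the members' TPM in the libraries labelled RageΔMye and 10.5% to 13.6% in WT libraries. The ratio of Apoe to its neighbour Apoc1 (these genes lie with Apoc2 and Apoc4 in 27.6 kb, chr7:19671579-19699188) was 3.51 to 4.82 in the libraries labelled RageΔMye and 0.634 to 0.812 in WT libraries. Hepatocyte markers summed to 43595 to 54798 TPM in the libraries labelled RageΔMye and 157897 to 209657 TPM in WT libraries. The genotypes were not tested against each other. The part in these values of the larger share of TPM in genes with an overlap on the opposite strand, or of the housekeeping genes at 0, was not tested.

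**Figure D3:**
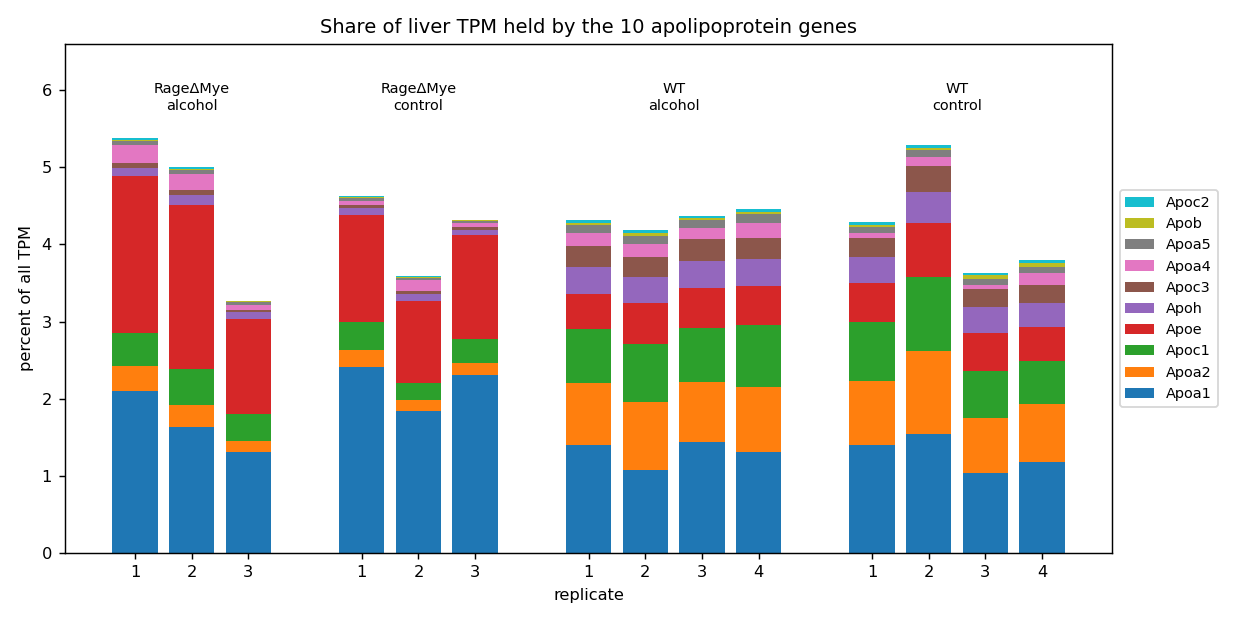
Percent of all TPM held by each member, stacked, in every liver library. The whole stack spans 3.27% to 5.38%, and Apoe (red) takes a larger part of it in the libraries labelled RageΔMye.

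The second question was the effect of alcohol diet in the libraries labelled RageΔMye. No member passed, where 0.0374% of 10689 genes did (4 genes, limma). At an unadjusted p under 0.05, 2 members were higher and none lower, where 6.99% of all genes were under that value and 3.99% were higher. The log2 difference was positive for 8 members, with a median of 0.48 over the members and 0.01 over all genes. Apoc2 was among these 8, and its sign turned in a further fit given below.

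Apoa5 was at 516, 474 and 402 TPM in libraries labelled RageΔMye on alcohol diet, against 358, 298 and 271 TPM on control diet. The groups did not overlap, as for 5.83% of all genes in this direction. The log2 difference was 0.585 (SE 0.23, unadjusted p = 0.0353, adjusted p = 0.671, limma). Apoc1 was at 4371, 4652 and 3501 TPM on alcohol diet and 3636, 2190 and 3076 TPM on control diet, with a log2 difference of 0.51 (unadjusted p = 0.0476, adjusted p = 0.672, limma).

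Apoe was at 20339, 21349 and 12281 TPM in libraries labelled RageΔMye on alcohol diet and at 13945, 10568 and 13542 TPM on control diet. Replicates 1 and 2 on alcohol diet lay above all control libraries and replicate 3 below 2 of them, and the log2 difference was 0.47 (SE 0.23, adjusted p = 0.672, limma). Apoa4 had the same pattern, with 2393, 2118 and 550 TPM on alcohol diet and 529, 1356 and 582 TPM on control diet. Alcohol replicate 3 was the lowest of its group for 9 of the 10 members, and its Mup sum was 460 TPM, against 10966 and 11282 TPM in the other alcohol libraries. Over the 6 fits that left out a library, the log2 difference of Apoe ran from 0.33 (without alcohol replicate 2) to 0.73 (without alcohol replicate 3). That of Apoa4 ran from 0.53 (without alcohol replicate 1) to 1.59 (without alcohol replicate 3), around 0.91 with all libraries, and the part of the Mup difference was not tested.

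Apoa1 ran the other way, at 20930, 16300 and 13020 TPM in libraries labelled RageΔMye on alcohol diet and 24123, 18372 and 23051 TPM on control diet. The groups overlapped, and the log2 difference was -0.40 (SE 0.19, adjusted p = 0.672, limma). Within each library, Apoa1 made up 32.6% to 39.8% of the members' TPM on alcohol diet and 51.2% to 53.4% on control diet, while Apoe made up 37.6% to 42.6% on alcohol diet and 29.5% to 31.4% on control diet. These shares did not overlap between the diets. They are given as a description, chosen after the values were seen, and no test was made.

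Hepatocyte markers summed to 47332 to 49131 TPM on alcohol diet and 43595 to 54798 TPM on control diet in these libraries, and none of 11 passed. Of the marker lists, the male-biased genes held a call, with 1 of 14 lower, and the others held none. All 14 male-biased genes tested had negative log2 differences (median -2.05), and the sum of all 15 listed was 599 to 4166 TPM on alcohol diet and 11399 to 15741 TPM on control diet. Of 15 female-biased genes, 14 were at 0 in all control libraries. Those of them that passed the filter on low values did so through the alcohol libraries and could only have positive log2 differences. The 6 female-biased genes tested had a median of 2.29, and nothing is read from their sign. The sum of all 15 was 210 to 793 TPM on alcohol diet and 8.69 to 12.5 TPM on control diet. These sums, like the Y-linked sums above, did not overlap between the diets, whereas the Xist values above did. Of 12 monocyte-derived macrophage markers, 8 were at 0 in each diet group. The part of any of these markers in the values above was not tested.

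The remaining members had wide intervals in these libraries. The log2 difference was 0.48 for Apoa2 (interval -0.24 to 1.20), 0.40 for Apoc3 (interval -0.25 to 1.05), 0.45 for Apoh (interval -0.07 to 0.97) and -0.15 for Apob (interval -0.95 to 0.66). Apoh shares exon sequence with Prkca, also on the opposite strand, which was at 0 to 2.36 TPM in every liver library.

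Apoc2 was at 208, 317 and 87.4 TPM in libraries labelled RageΔMye on alcohol diet and at 145, 164 and 0 TPM on control diet. In the control library where Apoc2 was listed at 0, Gm44805, a gene annotated on the same strand that shares exons of Apoc2 and Apoc4, was at 344 TPM, and it was listed at 0 in the other 5 libraries labelled RageΔMye. The fitted log2 difference of 2.64 became -0.17 (adjusted p = 0.954, limma) when Apoc2 and Gm44805 were summed, a step chosen after the values were seen.

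**Figure D4:**
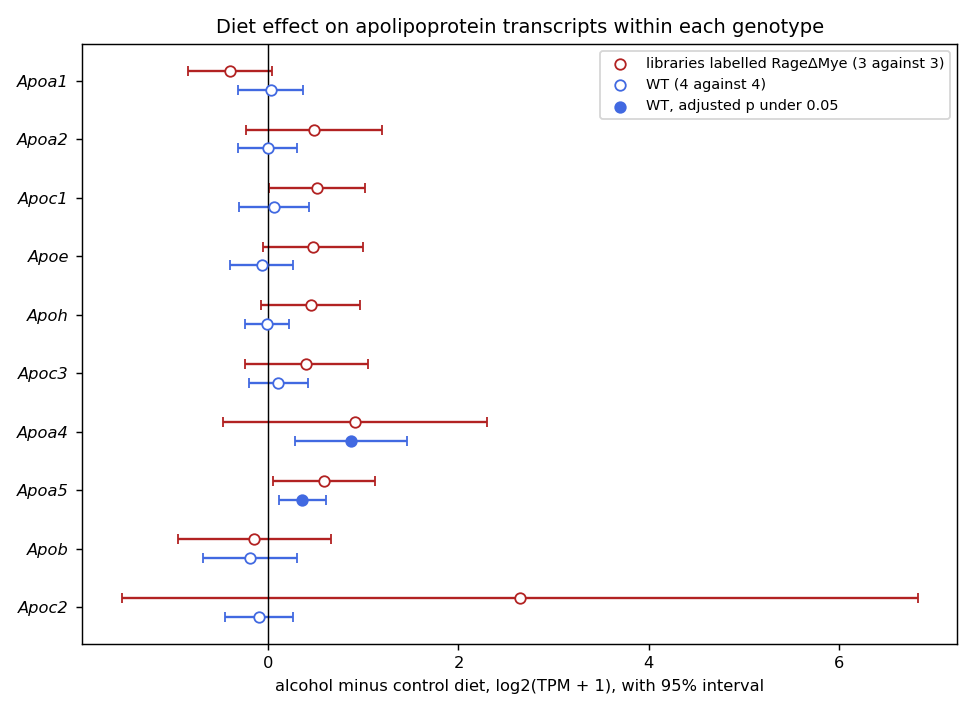
Log2 difference between alcohol and control diet for each member, with 95% intervals, in the libraries labelled RageΔMye and in WT. Filled points (Apoa4 and Apoa5 in WT) passed the test, and the Apoc2 interval of -1.54 to 6.83 in the libraries labelled RageΔMye includes the library where it was listed at 0.

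The diet effect was then compared between genotypes. No member passed this test, where 0.505% of 12069 genes did, and none was under an unadjusted p of 0.05, against 8.50% of all genes. The difference of effects, libraries labelled RageΔMye minus WT, was 0.04 for Apoa4 (interval -3.29 to 3.38) and 0.225 for Apoa5 (interval -0.91 to 1.36). These intervals depend on the weights: the SE was 1.55 for Apoa4 and 0.527 for Apoa5, against 0.714 and 0.192 around the same estimates without weights (adjusted p = 0.981 and 0.535, limma).

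The third question, for Apoe, was the response of RAW264.7 cells to the complex. Apoe was at 6.55, 24.8 and 0 TPM in cells given the complex and at 2.92, 3.26 and 0 TPM in cells given BSA. One library of each group was listed at 0, and the high value in the complex group came from replicate 2. The log2 difference was 1.18 (SE 1.25, interval -1.76 to 4.12, adjusted p = 0.755, limma). It was 0.11 without that library and 2.45 without complex replicate 3. Over all genes, 0.180% of 10559 passed, and 8.31% were under an unadjusted p of 0.05. Apoa2 was at 32.3 to 43.7 TPM in cells given the complex and at 20.4 to 49.1 TPM in cells given BSA, Apoc2 was above 0 in 1 library given the complex (10.8 TPM), and the other 7 members were listed at 0 in all 6 libraries. Hepatocyte markers were listed at 0 in all 6. Monocyte-derived macrophage markers summed to 2446 to 3058 TPM in cells given the complex and 2062 to 3174 TPM in cells given BSA, with Ly6c2 and Plac8 at 0 in all 6. Kupffer cell markers summed to 55.2 to 113 TPM in cells given the complex and 46.2 to 140 TPM in cells given BSA, and 9 of 12 of them, Clec4f and Timd4 included, were at 0. Cholangiocyte markers summed to 791 to 976 TPM in cells given the complex and 732 to 1100 TPM in cells given BSA, with 5 of 7 at 0 and Spp1, which the macrophage list also holds, among the others.

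Genes that act on these proteins were read from 7 lists. In WT liver, lists of VLDL assembly had 1 of 15 tested genes higher and 3 lower, lipoprotein uptake 2 higher and 3 lower of 13, HDL formation 3 higher and 2 lower of 13, lipases 3 higher and 2 lower of 11, and other apolipoproteins 3 higher and 2 lower of 15. The list of transcription factors had 1 higher and 4 lower of 19, and macrophage cholesterol efflux 3 higher and 2 lower of 17. Over all genes tested, 13.3% were higher and 17.9% lower (31.2% in all), so these counts are given as a description and nothing is read from them about the lists. No list held a gene that passed in the libraries labelled RageΔMye, in RAW264.7 cells or in the comparison of genotypes.

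Of the genes for uptake and efflux, Cd36, Sdc1 and Abca1 rose in WT liver on alcohol diet. Cd36, a fatty acid and lipoprotein receptor, averaged 28.1 ± 6.26 TPM in WT livers on alcohol diet and 7.19 ± 4.28 TPM in WT livers on control diet (log2 difference 1.93, adjusted p = 0.00105, limma). Sdc1, a heparan sulfate proteoglycan that binds remnants, averaged 178 ± 16.7 TPM on alcohol diet and 85.4 ± 14.4 TPM on control diet (1.06, adjusted p = 0.000386, limma). Abca1, which loads cholesterol onto Apoa1, averaged 53.4 ± 6.77 TPM on alcohol diet and 23.2 ± 12.1 TPM on control diet (1.285, adjusted p = 0.00718, limma).

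Among genes of particle handling, Lipc, hepatic lipase, rose to 220 ± 18.7 TPM in WT livers on alcohol diet, against 141 ± 6.99 TPM in WT livers on control diet. Lcat and Tm6sf2, which esterify HDL cholesterol and aid VLDL lipidation, rose by 0.44 and 0.41 on the log2 scale, and both calls were lost with TPM rescaled without the Mup genes. Lipg, endothelial lipase, fell to 3.16 ± 0.336 TPM on alcohol diet, against 10.1 ± 3.59 TPM on control diet. Cideb and Apobec1, the first known for VLDL lipidation and the second for editing Apob mRNA, fell by 0.44 and 0.55. Of the transcription factors known to act on apolipoprotein genes, Hnf4a, an activator, rose (0.56). Cebpa, another activator, and Nr1d1, a repressor, fell (-0.92 and -0.96). The Hnf4a call was lost with TPM rescaled without the Mup genes. It was also lost without control replicate 1 or 2 or alcohol replicate 2 or 4 (adjusted p up to 0.0723, limma), and the Cideb call without alcohol replicate 1 or 3 (adjusted p up to 0.0776, limma).

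Further passing genes of these lists moved in either direction in WT liver on alcohol diet. Gpihbp1, which anchors lipoprotein lipase on capillaries, rose by 1.11 on the log2 scale and Npc2, a lysosomal cholesterol carrier, by 0.53. Npc1, its membrane partner, fell by 0.59, and Lsr, a receptor that takes up lipoproteins holding Apob or Apoe, by 0.63. Erlin2 fell by 0.61, Bmp1, which processes the Apoa1 precursor, by 0.47, the lipase maturation factor Lmf1 by 0.40 and Apol7a by 1.42. The calls of Lmf1 (6 of 8 fits), Npc1 (5), Apol7a (4), Bmp1 (3) and Gpihbp1 (1) were lost with a library left out, the last without control replicate 3. When all 14 liver libraries shared 1 estimate of the spread, Cd36, Sdc1 and Nr1d1 kept the call among the pathway genes named for WT liver and the others did not.

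In the libraries labelled RageΔMye the list genes with the smallest p did not pass and are given as values. The log2 differences between alcohol and control diet were 3.11 for Tm6sf2 and 0.90 for P4hb, a subunit of the triglyceride transfer protein that lipidates Apob, 1.11 for Lrpap1 and -0.97 for Scarb1, the HDL receptor. They were 1.23 for Pon1, an HDL enzyme, -0.51 for Gpld1, -1.88 for Lpl, lipoprotein lipase itself, 1.09 for Apol7a, 0.82 for Apoc4, -0.82 for Rxra and -2.11 for Nr0b2. The adjusted p of these genes ran from 0.612 (P4hb) to 0.751 (Scarb1 and Gpld1, limma). Tm6sf2 was listed at 0 in 2 control libraries, Lpl in 2 alcohol libraries and Nr0b2 in 1 alcohol library. Their log2 differences therefore rest in part on the pseudocount. In the comparison of the diet effect between genotypes, the corresponding genes ran from -2.15 (Lpl) to 2.74 (Apoc2), and the smallest adjusted p was 0.35 (Tm6sf2, limma).

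In RAW264.7 cells, Saa3, an acute phase apolipoprotein of macrophages, was at 10.8 to 23.0 TPM in cells given the complex and was listed at 0 in all cells given BSA (adjusted p = 0.0527, limma). Scarb1 averaged 12.9 ± 5.69 TPM in cells given the complex and 25.6 ± 1.68 TPM in cells given BSA (adjusted p = 0.576, limma). The other genes with the smallest p in their lists had log2 differences of 1.02 for Mia3, -1.08 for Sort1, -0.76 for Lsr, -0.29 for Gpld1, 1.68 for Cebpa, -0.61 for Nr1d1 and -0.595 for Npc1. Lipg was at 2.32 to 2.46 TPM in cells given the complex and listed at 0 in all cells given BSA, and Apod was listed at 0 in all cells given the complex.

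Markers of other cells were counted in the same way in WT liver, where 13.3% of all genes tested were higher and 17.9% lower. Neutrophil markers were higher for 4 of 4 tested genes, with sums of 102 to 152 TPM on alcohol diet and 29.0 to 75.3 TPM on control diet, and monocyte-derived macrophage markers for 4 of 9 (162 to 324 TPM on alcohol diet, 91.1 to 157 TPM on control diet). Stellate cell markers were higher for 5 of 8 and sinusoidal endothelial markers for 3 of 10, and no Kupffer cell marker of 12 passed. Hepatocyte markers summed to 186161 to 209657 TPM on alcohol diet and 157897 to 179995 TPM on control diet, with 2 of 11 higher and 1 lower. Cholangiocyte markers had none higher and 1 lower of 3, markers of T, NK and B cells 1 higher and 1 lower of 4, and housekeeping genes 1 higher and 1 lower of 14. Nothing is read from the counts that lie near the shares over all genes, such as 3 of 10 and 2 of 11. Of the enterocyte markers, 1 was tested and did not pass, and Alpi, Lct and Sis were at 0 in all WT livers on alcohol diet. All 15 female-biased liver genes tested were higher and all 15 male-biased genes lower on alcohol diet. In bulk liver, fewer cells of a type and less RNA per cell cannot be told apart, and the part of cell makeup or sex in the results for Apoa4 and Apoa5 was not tested.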

How the data were processed

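RNA from 14 mouse liver samples and 6 RAW264.7 samples was sequenced after TruSeq Stranded mRNA preparation, per the labels, and build mm10 is named in the submitters' processing notes. The aligner, counting tool, strand setting and annotation were not given in the sources used. The authors deposited 1 table for each source, with values read as TPM because all columns sum to the same total. The table headers name no unit, and no column was left out. Read depth is unknown, so counting intervals are not given.

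A pseudocount of 1 TPM was added before the log2 transform, which understates changes of low genes. Genes averaging 1 TPM or more in any group compared entered limma (version 3.58.1, R 4.3.3, trend option). P-values were adjusted by Benjamini-Hochberg over all genes tested, with a threshold of 0.05. The 8 WT, 6 RageΔMye and 6 RAW264.7 libraries were fitted apart, since their spreads differ widely, and the difference of the diet effect was fitted on 14 liver libraries with weights per genotype. Each fit was tested on simulated data, where most calls of the difference fit were false, so its count of calls serves here only as background.

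The 10 members and 20 gene lists were chosen with earlier results of these data known. All members are named. Of each pathway list, the text names up to 4 genes that passed, those of smallest adjusted p, or where none passed the pair of smallest p, as values. For the difference of the diet effect that pair is given by its range. A few genes picked in this way are left out of the text, and the counts of each list include them. Positions come from GENCODE vM21 and promoters from RefSeq. Alternatives were other pseudocounts, filters and scalings, a joint fit, each library left out, a replicate block and, chosen after the data were seen, Apoc2 summed with Gm44805.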

Additional observations from a re-analysis of the deposited data

Results flagged for a closer look

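Apoc3 in control replicate 2 of WT liver stood apart from its group, at 3449 TPM, where the other 3 WT control libraries were at 2266 to 2442 TPM. The gap to its nearest neighbour was large for a group of 4 by Dixon's criterion. It was the only one of 22 groups of values tested in this way, and chance marks about 1 in 20. Apoc3 did not pass the test of alcohol diet in WT liver with this library or without it, where the log2 difference was 0.24 (adjusted p = 0.0792, limma).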

How the results depend on the processing

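Of 1292 recomputed values of single genes, 1157 kept their direction and their side of the threshold, 91 lost a call, 6 gained a call and 38 turned sign. In WT liver 3042 genes passed, against 1881 with a filter at 5 TPM and 337 in the joint fit, and 2055 to 3469 with a library left out. The count of members that passed there, 2, was 0 without a filter, 0 without the Mup genes, 0 in the joint fit and 0 to 2 with a library left out. The fit without a filter rests on many genes at 0 in all libraries. In the libraries labelled RageΔMye 4 genes passed, against 0 with a pseudocount of 0.01, 9 with a filter at 5 TPM, 7 after quantile normalization, 657 in the joint fit, where Apoa5 was the 1 member called (adjusted p = 0.037, limma), and 0 to 5 with a library left out. In RAW264.7 cells 19 genes passed, against 12 without a filter and 2 to 9 with a library left out. The difference of diet effects had 61 calls, 126 without a filter, 463 without weights and 50 to 71 with a library left out. The causes were not tested.

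The values that turned sign were, in WT liver, Apoa2 (0.191) and Apoh (0.011) after quantile normalization, Apoa2 (0.057) and Apoh (0.051) after median-ratio scaling, and Apoa1 (-0.122), Apoc1 (-0.088) and Apoc3 (-0.044) without the Mup genes. With a library left out, WT values ran from -0.077 to 0.117 for Apoa1, -0.073 to 0.121 for Apoa2, -0.053 to 0.204 for Apoc1, -0.174 to 0.019 for Apoc2, -0.157 to 0.067 for Apoe and -0.059 to 0.051 for Apoh. In the libraries labelled RageΔMye, Apob ran from -0.387 to 0.093, and Apoc2 was -0.167 when summed with Gm44805, which also gave a difference of effects of -0.07 in place of 2.74. The difference of effects was -0.007 for Apob after quantile normalization, -0.076 for Apoa4 and -0.07 for Apob after median-ratio scaling, and ran from -0.339 to 0.721 for Apoa4 and -0.192 to 0.288 for Apob with a library left out.

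The titles do not say whether replicate numbers pair the samples. The deviations of same-numbered libraries from their group means had correlations of -0.017 to 0.018 (RageΔMye) and -0.027 to -0.002 (RAW264.7). With few pairs and a wide spread between replicates, these correlations cannot exclude a pairing. With a replicate block, 0 genes passed for RageΔMye livers and 0 for RAW264.7 cells. WT numbers follow accession order, so no paired fit was made there. The unknown depth limits every value listed at 0.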

Other observations

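Serum amyloid A proteins are apolipoproteins of HDL outside the 10 members. In WT liver Saa1 averaged 13890 ± 2652 TPM on alcohol diet and 5574 ± 3873 TPM on control diet, and Saa2 15120 ± 3082 TPM on alcohol diet and 4668 ± 4045 TPM on control diet (SD, n = 4 each). Both acute phase genes passed (log2 differences 1.65 and 2.35, adjusted p = 0.0289 and 0.0286, limma), and each lost its call in 4 of 8 fits with a library left out, namely control replicate 3 or alcohol replicate 1, 2 or 3 (adjusted p up to 0.0811, limma). Saa4, the constitutive form, fell to 629 ± 114 TPM on alcohol diet, against 1412 ± 438 TPM on control diet (log2 difference -1.13, adjusted p = 0.00379, limma). Saa1 and Saa2 are closely alike in sequence, so that their reads may have been split between them.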
